A study of Drosophila melanogaster with 6 samples.

Results

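Preimmune serum is blood serum drawn from an animal before it is immunized, and in chromatin immunoprecipitation it shows which chromatin comes down without the specific antibody. The libraries described here are the 2 preimmune libraries of a series of 6 labelled samples, 1 from wild-type and 1 from su(Hw)f ovaries of Drosophila melanogaster, chosen by their labels and set against each other in 1 kb windows. The study asked where Su(Hw) lies in ovary chromatin of the 2 genotypes, and the preimmune libraries are its control for chromatin recovered without the antibody. Su(Hw) is a zinc finger DNA-binding protein, best known as the factor that makes the gypsy retrotransposon act as an insulator, and its loss blocks egg development. Background recovery in such assays is known to vary with how open, how easily sheared and how easily sequenced a stretch of chromatin is, so a control library is read against input, the sheared chromatin before precipitation.

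Wild type was Canton S, and the mutant carries the strain label su(Hw)fv and is named f in the sample titles. All females were virgins under 6 hours old, and their ovaries were fixed in 1.8% formaldehyde. Strain background and the su(Hw) alleles cannot be told apart, because each genotype is also a different strain. Input libraries of the same genotypes, 1 each, served as the base rate, and the antibody samples are not analysed here. The antibody field of every sample reads anti-Su(Hw), and the preimmune identity comes from the sample descriptions. The tracks' own headers call these libraries igG.

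Each group had 1 library, so no difference has a replicate check and no test was run. The intervals given are 95% exact conditional intervals and cover counting error only. The wild-type preimmune library held 11861422 reads on the 5 large chromosome arms and chromosome 4 together, and the su(Hw)f preimmune library held 19741807. The median 1 kb window held 97 reads in wild-type preimmune and 170 in su(Hw)f preimmune, against 113 and 155 in the inputs of wild type and su(Hw)f. Ratios below are su(Hw)f over wild type after each library was scaled to that total, and levels are multiples of the mean 1 kb window of the same library. The sequence of the dm3 genome was not used here, so windows are given by dm3 position, without gene names.

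The preimmune profiles of the genotypes differed in many short windows, in both directions. A window was called when the scaled libraries differed at least 2-fold and together held at least 20 reads. Of 114100 windows tested, 6798 (5.96%) passed with more su(Hw)f preimmune reads, and 7611 (6.67%) with fewer. By the same rule input called 258 of 113947 windows higher, or 0.226%, and 2564 lower, or 2.25%. Called windows thus made up 12.6% of those tested in preimmune and 2.48% in input, and 47.2% of the called windows were higher in su(Hw)f in preimmune against 9.14% in input. The balance of directions depends on the scaling, for dividing by the median window ratio gave 5829 windows higher and 8555 lower in preimmune, with 40.5% of called windows higher.

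The log2 ratio of preimmune had a standard deviation over windows of 0.67, and that of input 0.41. Its 5th and 95th percentiles lay at -1.10 and 1.05 in preimmune and at -0.77 and 0.45 in input. At 3-fold, 868 windows (0.761%) rose above and 1683 (1.48%) fell below in preimmune, against 134 (0.118%) and 493 (0.433%) in input. At 4-fold the numbers were 286 (0.251%) and 662 (0.58%) in preimmune and 111 (0.0974%) and 249 (0.219%) in input. At 8-fold the counts fell to 130 (0.114%) and 200 (0.175%), close to the 96 (0.0842%) and 172 (0.151%) of input. Most of the preimmune calls beyond the number called in input therefore had ratios of 2- to 3-fold. The counting interval of the ratio lay wholly beyond 2-fold in 1260 higher windows and 2747 lower ones.

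The preimmune libraries were nearly unrelated in rank over windows, while the inputs were closely alike. Over 115227 windows of 1 kb with at least 1 read in any of the 4 libraries, the Spearman correlation was 0.148 between the preimmune libraries and 0.904 between the inputs. The su(Hw)f preimmune library followed input, with 0.612 against its own input and 0.640 against the input of wild type. Wild-type preimmune did not at 1 kb, with -0.0480 against its own input and -0.164 against the input of su(Hw)f. Over 100 kb its values were weakly positive, at 0.187 and 0.0664. There su(Hw)f preimmune had 0.871 against its own input and 0.906 against that of wild type. These values are descriptions, because windows are not replicates and share base composition, mappability and the depth of their library.

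**Figure D1:**
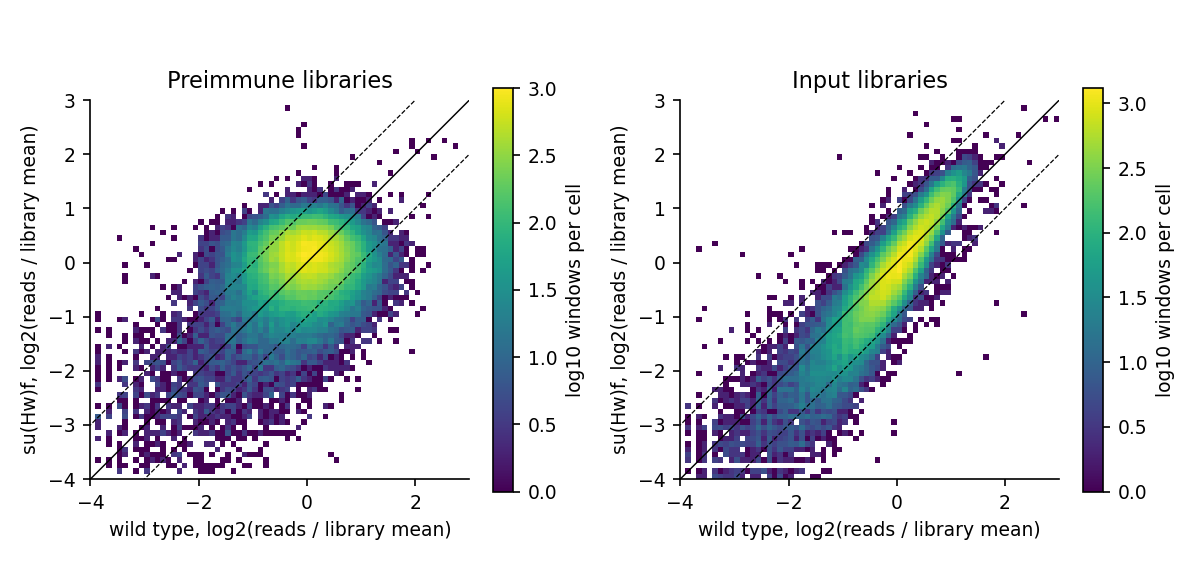
Reads per 1 kb window in su(Hw)f (vertical axis) against wild type (horizontal axis), as log2 multiples of the library mean, for preimmune (left) and input (right); colour gives the log10 number of windows, the solid line is equality and the dashed lines are 2-fold. The preimmune windows form a round cloud (Spearman correlation 0.148), whereas the input windows lie along a narrow band (0.904).

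The correlation between the preimmune libraries rose with window size, to 0.278 at 10 kb and 0.365 at 100 kb, but remained below that of the inputs, which was 0.957 and 0.975. The fullest windows were also mostly different ones. Of the 1204 windows that make up the top 1% of each preimmune library, 34 were shared, or 2.82%, against 582 of 1204, or 48.3%, for the inputs. In the top windows of wild-type preimmune the median level was 2.45 in that library and 1.01 in su(Hw)f preimmune. In the top windows of su(Hw)f preimmune it was 1.93 in that library and 1.07 in wild type.

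The direction of the preimmune difference followed the input level, which the preimmune ratio does not contain. Windows rich in input reads tended to have ratios above 1, and windows poor in them ratios below 1. Windows tested in both kinds of library were ranked by the mean level of the inputs and split into 10 equal classes. The median log2 preimmune ratio rose in every step, from -0.68 in the lowest class to -0.03 in the fifth and 0.69 in the highest. As folds these are 0.625 and 1.61 at the ends.

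The share of windows called higher was 3.17% in the lowest class and 24.2% in the highest, while the share called lower fell from 32.5% to 0.105%. The 3 highest classes held 71.5% of windows called higher and 1.09% of those called lower. For the 3 lowest classes these were 9.90% and 84.2%. Levels in preimmune moved in opposite directions across most of this range. From the second class to the highest, the median level of su(Hw)f preimmune rose from 0.835 to 1.32, and that of wild-type preimmune fell from 1.12 to 0.822.

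**Figure D2:**
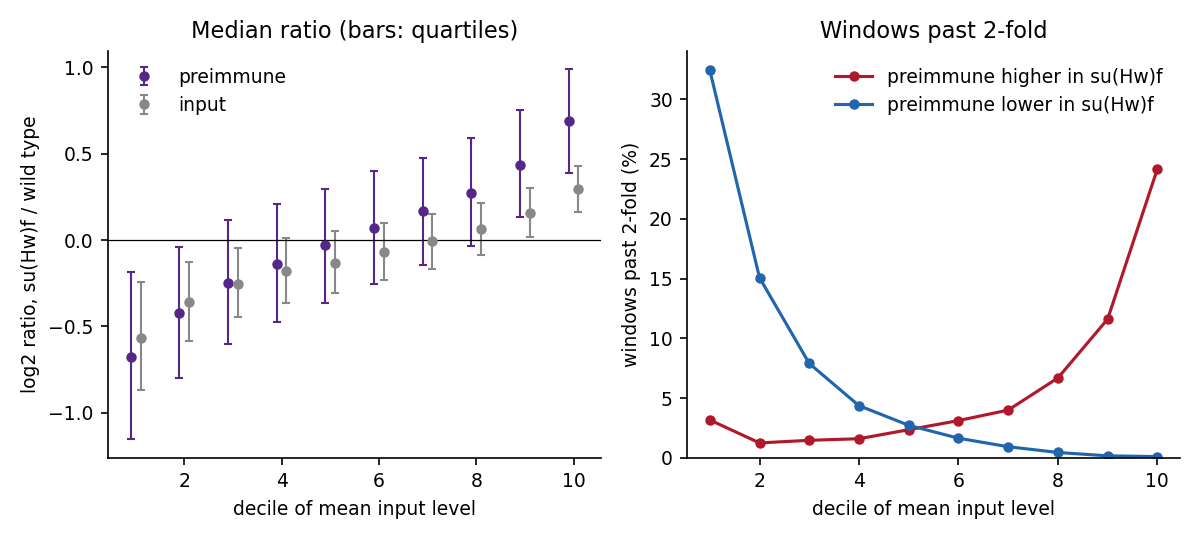
Left, median log2 ratio, mutant to wild type, in each decile of mean input level, with quartiles as bars, for preimmune (purple) and input (grey). Right, the percentage of windows whose preimmune ratio passed 2-fold, higher (red) or lower (blue) in su(Hw)f. The median preimmune ratio climbs from -0.68 to 0.69, and the higher and lower curves cross between the fifth class and the next.

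The same order appeared when windows were ranked by either input alone. It ran from -0.55 to 0.65 over classes of wild-type input and from -0.74 to 0.69 over classes of su(Hw)f input. Without chromosome 4 and the arm ends it ran from -0.66 to 0.69. Input itself differed between genotypes in the same sense, from -0.57 in the lowest class to 0.30 in the highest, although here the ranking uses the libraries compared. Input level accounted for 33.1% of the variance of the log2 preimmune ratio over 113600 windows. When the median of each of 50 input-level bins was subtracted, a step chosen after seeing this trend, 3888 windows were higher and 3258 lower. Of the windows called without that step, 2283 higher and 2605 lower ones were still called, which is 33.7% and 34.8%. What sets the trend was not tested.

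The median levels of called windows lay off the library mean in all 4 libraries. In the windows higher in su(Hw)f preimmune, the median level was 1.36 in that library and 0.568 in wild-type preimmune, and the inputs, which did not choose these windows, stood at 1.43 for wild type and 1.67 for su(Hw)f. In the lower windows su(Hw)f preimmune stood at 0.622 and wild-type preimmune at 1.54, with a wild-type input level of 0.658 and a su(Hw)f input level of 0.427. The median level of windows not called was between 0.961 and 1.07 in every library. In each class of called window the su(Hw)f preimmune median was on the same side of its mean as both inputs. The wild-type preimmune median was on the other side. The windows were chosen by the preimmune ratio, which pushes the preimmune libraries apart. Only the side on which the inputs stood was free of that choice.

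Input called the same windows far more often than its base rate, although most preimmune calls had no counterpart in input. Among 113834 windows tested in both, input called 0.214% higher and 2.24% lower. Of the 6766 (5.94%) with a higher su(Hw)f preimmune, input called 196 higher, or 2.90% (interval 2.51% to 3.32%). Of the 7492 (6.58%) with a lower one, input called 1424 lower, or 19.0% (18.1% to 19.9%). The preimmune and input comparisons share no library.

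Read the other way, preimmune called 196 of the 244 windows higher in input, or 80.3% (74.8% to 85.1%), where its base rate was 5.94%. It called 1424 of the 2551 windows lower in input, or 55.8% (53.9% to 57.8%), where its base rate was 6.58%. Calls of opposite sign were rarer than the base rate. Of the windows higher in preimmune 13 were lower in input, or 0.192%, against 2.24%. None of the 7492 lower windows was higher in input, which allows a share of up to 0.0492% by the exact interval, against a base rate of 0.214%.

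The overlap grew with the size of the preimmune ratio. For preimmune ratios of 2- to 3-fold above 1, input called 0.862% of windows higher. That share was 4.17% at 3- to 4-fold, 12.5% at 4- to 8-fold and 85.0% at 8-fold or more, where 102 of 120 windows were called (77.3% to 90.9%). For lower windows the shares were 12.6%, 30.9%, 47.8% and 95.4% in the same order, the last being 167 of 175 windows (91.2% to 98.0%). Most windows at 8-fold or more in preimmune were therefore called in input as well. The shares and intervals here and above count neighbouring windows as separate. Yet single long runs held many windows called in input, 41 in 3L 19001 to 67000 and 72 in X 2746001 to 2819000. The intervals therefore do not describe separate stretches of the genome.

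The preimmune and input ratios also ran more closely together in larger windows. Their Spearman correlation was 0.510 at 1 kb, 0.698 at 10 kb and 0.860 over 1205 windows of 100 kb. The standard deviation of the log2 ratio dropped from 0.66 at 1 kb to 0.34 at 100 kb in preimmune and from 0.39 to 0.29 in input.

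Among the called windows, 4024 of the 6766 higher ones had like inputs, the larger at most 25% above the smaller after scaling, which is 59.5% (58.3% to 60.6%). Of the 7492 lower ones 1992 did, or 26.6% (25.6% to 27.6%). Over all windows tested in both, 63.8% had inputs that close. Both shares were below that of all windows, and the lead of higher over lower windows rests on the scaling. With the median window ratio as the scale, 2868 higher windows (49.4% of those called) and 2826 lower ones (33.5%) had like inputs, and with the trend removed 2180 and 1949 did. These windows with like inputs made up 3.53% and 1.75% of all windows tested in both.

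Around the called windows with like inputs, the preimmune ratio lay much closer to 1 than inside them. This does not measure the range of preimmune differences in general. Choosing windows past 2-fold by itself leaves flanks closer to 1, and like inputs leave out stretches where input differs. Over windows of 100 kb the standard deviation of the log2 preimmune ratio was still 0.34. Within the 4024 higher windows with like inputs, the ratio of the mean preimmune levels was 2.35. It was 1.17 in the first 1 kb on each side and 1.09 at 3 to 5 kb. Within the 1992 lower windows it was 0.419, then 0.888 and 0.948. The windows were chosen by the preimmune ratio inside them and by like inputs there. The preimmune ratio inside and the closeness of the inputs inside are therefore no findings. The flanks were not used, nor was the height of the inputs beyond the minimum of 20 reads. Wild-type input stood at 1.41 inside the higher windows and 1.13 at 3 to 5 kb from them, and su(Hw)f input at 1.53 and 1.18. Inside the lower windows wild-type input stood at 0.725 and su(Hw)f input at 0.676, with 0.955 and 0.924 at 3 to 5 kb.

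**Figure D3:**
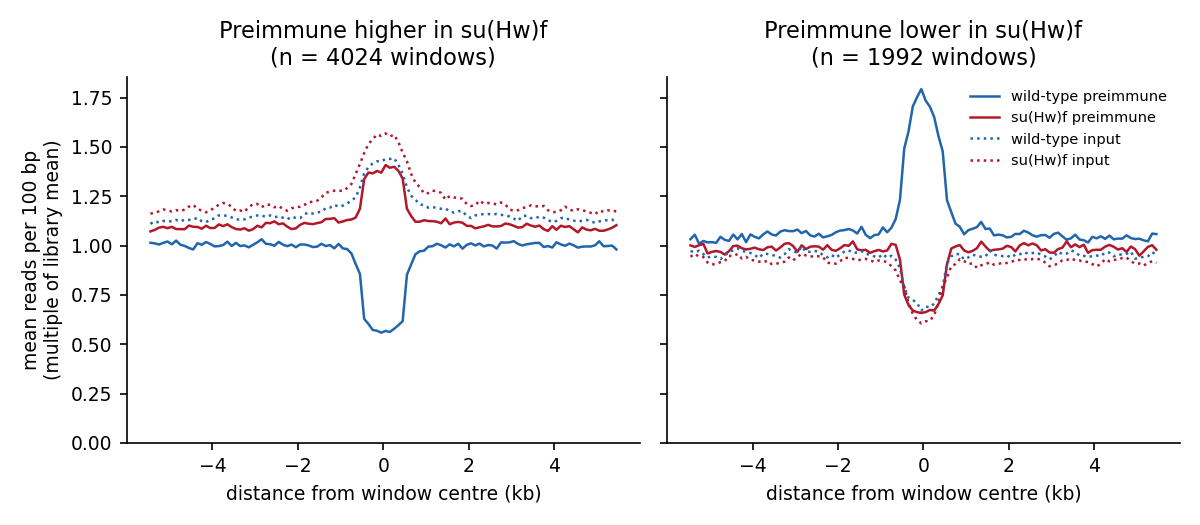
Mean reads per 100 bp, as multiples of the library mean, around 1 kb windows called in preimmune with like inputs, against distance from the window centre in kb; solid lines are preimmune, dotted lines input, blue wild type and red su(Hw)f. Inside the higher windows (left, n = 4024) su(Hw)f preimmune rises with both inputs and wild-type preimmune dips to a mean of 0.585, and inside the lower windows (right, n = 1992) wild-type preimmune rises to a mean of 1.64 while the other libraries dip.

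Neighbouring windows were only loosely alike. The log2 preimmune ratio of windows 1 kb apart correlated at 0.211, and at 0.0903 for windows 10 kb apart, against 0.294 and 0.127 in input. A window next to a higher one was itself higher in 13.8% of cases, and one next to a lower window was lower in 15.2%, against the 5.96% and 6.67% of all windows. At 50 kb those shares were 6.65% and 9.97%. Called windows were joined into runs across at most 1 window not called, which gave 5407 runs higher and 5922 lower. Single windows made up 81.7% and 80.4% of them, and 81 and 90 runs reached 5 windows.

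Of the 5 longest higher runs, 2 held windows called in input as well, and all of the 5 longest lower runs did. The longest higher run was 3L 19001 to 67000, with 4721 su(Hw)f and 209 wild-type preimmune reads, a ratio of 13.6 (11.8 to 15.7) against 8.55 in input. Its window 65001 to 66000 held 92 of the wild-type reads, and without it the ratio was 23.6 (19.6 to 28.6). The next, X 6709001 to 6732000, was of another kind, for none of its 23 windows was called in input while 15 were called in preimmune. It held 5212 su(Hw)f and 1650 wild-type preimmune reads, a ratio of 1.90 (1.80 to 2.01) against 1.27 in input (1.23 to 1.32). Its preimmune levels were 0.728 for wild type and 1.38 for su(Hw)f, and both inputs stood high, at 1.82 and 2.31. The 10 kb on each side were at a preimmune ratio of 1.33.

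3R 8532001 to 8541000 had all 9 windows called in preimmune and 8 in input. Its ratio was 2.89 in preimmune (2.68 to 3.12) and 2.35 in input (2.22 to 2.48), with 3853 su(Hw)f and 801 wild-type preimmune reads, and its flanks of 10 kb were at 0.975. 2L 12918001 to 12929000 was at 2.21 in preimmune (2.07 to 2.37) and 1.63 in input, inside flanks at 1.95. X 19755001 to 19764000 was at 1.80 (1.63 to 1.99) with 6 windows called in preimmune and none in input, where the ratio was 1.37.

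Of the 5 longest lower runs, 3 lay close together on X, and su(Hw)f input held 51, 17 and 7 reads in them. They were X 2746001 to 2819000, X 2690001 to 2718000 and X 2726001 to 2739000, with preimmune ratios of 0.00788, 0.0712 and 0.000418. In the first 2 of these a window at the edge held most of the su(Hw)f preimmune reads, 68 of 87 in 2818001 to 2819000 and 377 of 385 in 2690001 to 2691000. Without these windows the ratios were 0.00174 (0.00105 to 0.00273) and 0.00172 (0.000743 to 0.00340). Window 2690001 to 2691000 was nearly empty in the mutant's input, at 1 read, although wild-type input held 111 there. The preimmune level of su(Hw)f was nonetheless 2.30 in that window. Its ratio was 0.491 (0.428 to 0.564) in preimmune and 0.00609 in input, and what sets this gap was not tested. In X 2726001 to 2739000, su(Hw)f preimmune held 1 read against 1436 in wild type, and the interval reached 0.00233. 2R 1149001 to 1167000 was at 0.0689 in preimmune (0.0585 to 0.0807) and 0.0614 in input, and at 0.0231 (0.0172 to 0.0303) in preimmune without its window 1150001 to 1151000, which held 119 of 173 su(Hw)f reads. Chromosome 4 110001 to 121000 was at 0.467 in preimmune (0.427 to 0.509) and 0.611 in input.

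Chromosome 4, a small chromosome rich in heterochromatin, was set apart from the large arms in both kinds of library. Of its 1173 windows, 272 were lower in su(Hw)f preimmune (23.2%) and 18 higher (1.53%). Input called 17.6% of its windows lower and 0.173% higher. Its median input level was 0.517, between the 0.423 and 0.620 of the 2 lowest input classes. Its median log2 ratio was -0.49 in preimmune and -0.54 in input, and -0.08 and -0.15 once the trend with input level was removed. With the trend removed, preimmune called 4.33% of 1156 windows on chromosome 4 higher and 4.41% lower, so the lean towards lower windows was nearly gone.

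Among the large arms 2R leaned towards su(Hw)f, with 7.19% of windows higher and 5.19% lower, and 2L leaned the other way with 5.21% and 7.51%. X had 6.79% higher and 7.55% lower, 3L 5.60% and 7.21%, and 3R 5.50% and 5.23%. These leans changed once the trend with input level was removed. The shares higher and lower were then 3.63% and 2.47% on 2R, and 3.19% and 3.18% on 2L. X had 3.76% and 3.19%, 3L 3.84% and 2.92%, and 3R 2.77% and 2.52%. By total reads, 2R was at 1.059 (1.058 to 1.061) in preimmune and 1.016 in input, and 2L at 0.964 (0.962 to 0.965) and 0.973. The median input level was highest on 2R at 1.07 and lower on 2L and 3L, at 0.939 and 0.937. Across the 5 large arms the share of windows with like inputs that were higher in preimmune ran from 3.28% on 2L to 4.46% on 2R, and the share lower from 1.27% on 2R to 2.08% on X.

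**Figure D4:**
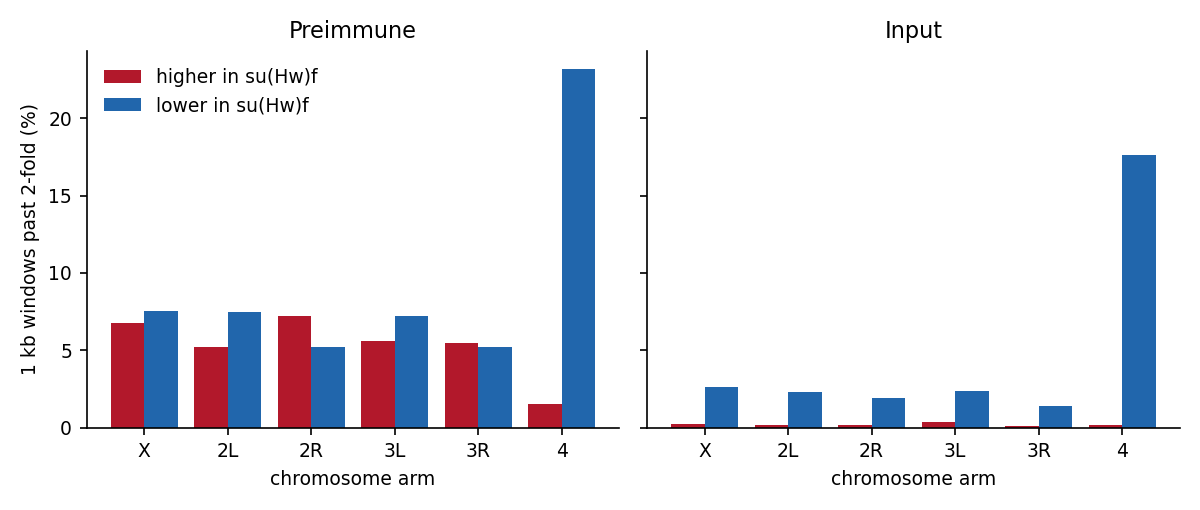
Percentage of tested 1 kb windows that differed at least 2-fold between su(Hw)f and wild type, higher (red) or lower (blue) in su(Hw)f, by chromosome arm, in preimmune (left) and input (right), 1 library a side. Chromosome 4 had 23.2% of its windows lower in preimmune and 17.6% in input, and no large arm passed 7.55% in preimmune or 2.64% in input in that direction.

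Along the large arms the first 1.5 Mb from the centromere-side end, which borders pericentric heterochromatin, held more lower windows than the rest. The share lower in preimmune was 13.5% within 0.5 Mb, 14.1% from 0.5 to 1 Mb and 11.9% from 1 to 1.5 Mb, and 5.97% from 1.5 to 3 Mb. The share higher stayed between 5.65% and 5.96% over the same distances. Input moved alongside, with 8.45%, 10.2%, 6.97% and 1.999% of windows lower, and the median input level was 0.622 within 0.5 Mb and 0.981 from 1.5 to 3 Mb. The first 1.5 Mb had 19.8%, 18.6% and 14.9% of windows lower on 2R, 3L and 2L, where the interior had 4.20%, 6.64% and 6.99%. On X and 3R the gap was smaller, with 9.19% and 6.10% against 7.35% and 5.10%.

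The outermost 200 kb at the telomere side of 3L had 26.9% of its 167 windows higher in preimmune and 24.6% in input. The run 3L 19001 to 67000 accounted for 42 of these 45 windows in preimmune and for all 41 in input, and outside it 3 of 124 tip windows were higher in preimmune. The tips of X, 2R and 3R had 10.8%, 11.96% and 12.2% of windows lower in preimmune, and 7.69%, 8.15% and 4.65% in input. The tip of 2L had 8.47% lower and 6.88% higher in preimmune, against 6.99% and 5.26% in its interior. Farther than 2 Mb from the centromere-side end, the median log2 preimmune ratio of 1 Mb bins ranged from -0.39 to 0.41, and that of input from -0.45 to 0.15.

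**Figure D5:**
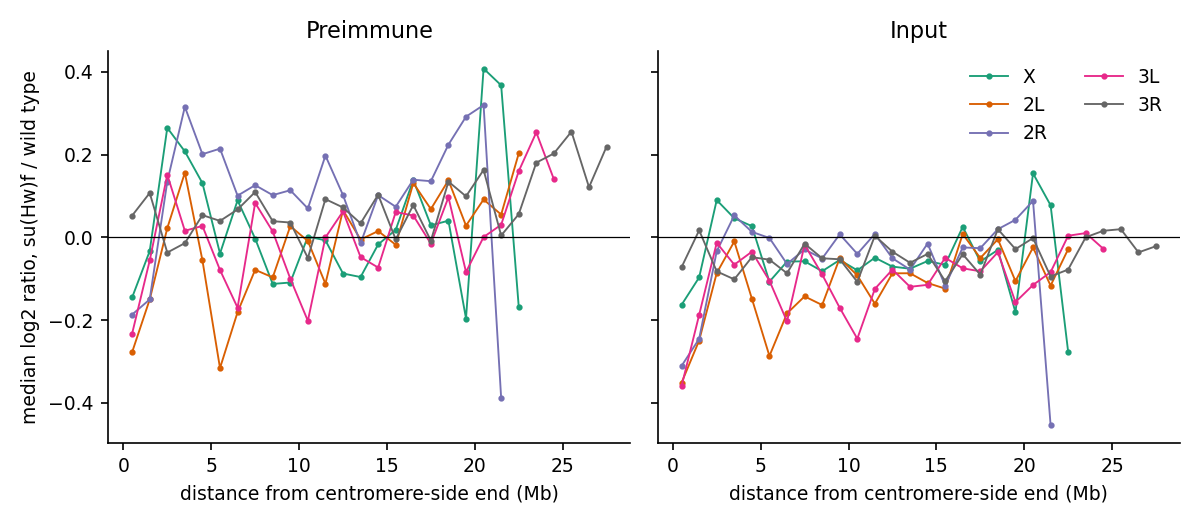
Median log2 ratio, mutant to wild type, over 1 kb windows in 1 Mb bins, against distance in Mb from the centromere-side end of each large arm, for preimmune (left) and input (right); lines are arms. Beyond 2 Mb the bins run from -0.39 to 0.41 in preimmune and from -0.45 to 0.15 in input.

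Windows with the clearest preimmune difference and like inputs were named by how far the interval of the ratio lay from 1, 10 in each direction. This choice favours windows with a high preimmune level in 1 genotype and a low one in the other, so those levels are no findings. In 8 of the lower ones wild-type preimmune stood at 2.56 to 4.52 times its mean, and in no lower one did su(Hw)f preimmune pass 0.683. On 2L 8714001 to 8715000 wild-type preimmune held 445 reads and su(Hw)f preimmune 88, with 61 and 82 in the inputs. The ratio was 0.119 (0.0934 to 0.150) in preimmune and 0.909 (0.644 to 1.29) in input. The other libraries stood at or below 0.537 times their means there.

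2L 7098001 to 7099000 held 407 wild-type and 112 su(Hw)f preimmune reads, a ratio of 0.165 (0.133 to 0.204). On 2L 7095001 to 7096000, 3 kb away, 283 and 78 reads gave 0.166 (0.127 to 0.213). On X 12878001 to 12879000 wild-type preimmune held 350 reads and su(Hw)f preimmune 105, a ratio of 0.180 (0.144 to 0.225). Both inputs there stood near their means, at 1.17 and 1.12.

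The others were 2L 7285001 to 7286000 at 0.165, 2L 16642001 to 16643000 at 0.176, X 9268001 to 9269000 at 0.163, 2L 17884001 to 17885000 at 0.197 and 2L 16322001 to 16323000 at 0.198. The tenth, 2L 1772001 to 1773000, rested on 2 su(Hw)f preimmune reads and 20 of wild type, and its ratio of 0.0601 had an interval of 0.00681 to 0.247. Of these 10 windows 8 were on 2L. Over all 1992 lower windows with like inputs 2L held 424, about as many as X with 436, 3L with 427 and 3R with 430, and 2R held 252.

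The named higher windows were low in wild-type preimmune, at 0.0101 to 0.406 times its mean, which the choice by the ratio favours. On 2R 20288001 to 20289000 wild-type preimmune held 26 reads and su(Hw)f preimmune 285, with 186 and 322 in the inputs. The ratio was 6.59 (4.40 to 10.3) in preimmune and 1.17 (0.974 to 1.41) in input. 2L 463001 to 464000 held 34 and 325 preimmune reads, a ratio of 5.74 (4.03 to 8.44), with inputs at 1.36 and 1.56 times their means. 3L 1710001 to 1711000 was at 5.52 (3.70 to 8.54), 2L 10773001 to 10774000 at 5.74 (3.53 to 9.92) and 3L 8168001 to 8169000 at 4.88 (3.51 to 6.96).

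In these 5 windows both inputs were above their means, and wild-type preimmune was between 0.183 and 0.406. 3R 14719001 to 14720000 was at 7.12 (4.04 to 13.7) with inputs at 0.887 and 0.849. 3L 11944001 to 11945000 was at 7.75 (4.08 to 16.5), and 6 of its 100 bp windows held no su(Hw)f preimmune read. The other 3 rested on 1 wild-type preimmune read each. In 2R 2345001 to 2346000 a single 100 bp window held 44 of 47 su(Hw)f preimmune reads, in chromosome 4 955001 to 956000 it held all 40, and in 3L 5299001 to 5300000 it held 19 of 37. Piled-up copies of a few fragments could not be separated from distinct fragments in these counts.

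A few windows were high in the preimmune of both genotypes and did not differ 2-fold. A level of 3 times the mean, a limit set after seeing the data, was reached by 138 windows in wild-type preimmune and 24 in su(Hw)f preimmune, with 10 in both. Wild-type input reached the same level at 38 windows and su(Hw)f input at 377, of which 16 were common to both inputs. The larger number was thus on the wild-type side for preimmune and on the su(Hw)f side for input. At this level the sets differ in size, and the smaller one limits how many can be shared, in preimmune and in input. In the top 1% of windows, where the sets are of equal size, 2.82% were shared in preimmune and 48.3% in input. X 8188001 to 8189000 was the fullest window of each preimmune library, with 1872 wild-type and 2268 su(Hw)f preimmune reads. Its preimmune ratio was 0.728 (0.684 to 0.774), and its inputs held 770 and 1047 reads. X 8189001 to 8190000 beside it held 1518 and 2198, a ratio of 0.870 (0.815 to 0.929). Inputs were high there too, between 6.21 and 7.78 times their means in the pair.

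On X 2684001 to 2687000 the preimmune levels ran from 4.40 to 6.88. The ratios of its 3 windows were 0.640 (0.575 to 0.712), 0.806 (0.722 to 0.899) and 1.01 (0.902 to 1.14). The first 2 of them had inputs between 0.908 and 1.205 times their means, and in the third su(Hw)f input was at 2.84. The other 5 shared windows were the stretch 2R 3132001 to 3137000, with preimmune ratios from 0.732 to 1.28 and inputs between 2.60 and 5.21.

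The 14 windows high in su(Hw)f preimmune alone had a median level of 3.13 in su(Hw)f input and 1.49 in wild-type input. Their su(Hw)f preimmune was high by choice, so the 12 called higher in preimmune follow from that choice. Input called 7 of the 14 higher, against 0.226% of all windows. 3L 20816001 to 20817000 held 1195 su(Hw)f and 80 wild-type preimmune reads, a ratio of 8.97 (7.15 to 11.4), with 7.99 in input (6.06 to 10.7). 2R 10736001 to 10738000 had ratios of 5.61 and 6.00 in its 2 windows, with 4.16 and 5.13 in input. 3R 24310001 to 24312000 had 4.59 and 5.76, with 4.09 and 4.53 in input.

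The 128 windows high in wild-type preimmune alone were of another kind. They were chosen for a high wild-type preimmune, so the 123 called lower in su(Hw)f preimmune follow from that choice. Input called 25 of the 128 lower, against 2.25% of all windows. Their median level was 3.30 in wild-type preimmune and 0.991 in su(Hw)f preimmune, and the inputs, which did not choose them, stood at 0.794 and 0.519. They fell on every arm, and whether their spread departs from that of all windows was not tested. There were 35 among 27081 tested windows on 3R, 29 among 21728 on 2L and 27 among 19950 on 2R. X had 22 among 21023, 3L 14 among 23145 and chromosome 4 had 1 among 1173.

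In the 13 windows where preimmune was higher and input lower in su(Hw)f, wild-type preimmune held 2 to 36 reads. X 8390001 to 8391000 had the most, with 36 wild-type and 146 su(Hw)f preimmune reads, a ratio of 2.44, against 77 and 54 input reads, a ratio of 0.474. 2L 12067001 to 12068000 held 25 and 91 preimmune reads and 43 and 30 input reads, for ratios of 2.19 and 0.472. The input ratios of these 13 lay between 0.360 and 0.496, and their preimmune ratios between 2.19 and 6.01.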

How the data were processed

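The deposited files are wiggle tracks that give whole-number read counts per 100 bp window, per the file headers, 1 file per library. These counts are whole and sum to a different total in each library. The submitters' processing notes name Partek 6.5 and dm3. Not given in the sources used here are the aligner, how duplicate or multiply matching reads were handled, and whether a read adds to 1 window or to every window it touches. If reads were counted more than once, or copied in the 15 PCR cycles, the intervals are too narrow.

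Counts were summed to 1 kb on X, 2L, 2R, 3L, 3R and 4 (Python 3.11.15, numpy 2.4.6, pandas 2.3.3, scipy 1.17.1, figures with matplotlib 3.10.9), and each library was divided by its total there, which was 97.4% to 98.5% of each library. Of 120384 windows, 6284 fell under 20 reads in preimmune and were not tested. Shares carry 95% exact binomial (Clopper-Pearson) intervals, and ratios an exact conditional interval. Calling was tested on simulated counts.

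Windows were named by rule: in each direction, the 10 called in preimmune with at least 20 input reads and like inputs (the larger at most 25% above the smaller) whose interval bound nearest 1 lay farthest from 1, and the 5 longest runs. The members, lists and rules were chosen with earlier results of these data known. High windows, windows of opposite sign, removal of the input trend, and leaving windows out of runs and of the 3L tip were chosen after seeing the data. Alternatives covered scaling, count minimum, fold, window size, arm ends, extreme windows and depth. No dm3 sequence or annotation was used.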

Additional observations from a re-analysis of the deposited data

Results flagged for a closer look

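Of the 9 scaffolds outside the major arms, left out of every comparison, 8 held more than the 3 reads that a count of 0 would allow, in either preimmune library. M was listed at 0 in all 4 libraries. Wild-type preimmune held 6330 reads on 2LHet, 91509 on 2RHet, 69991 on 3LHet, 54785 on 3RHet and 9140 on XHet. In su(Hw)f preimmune these were 9022, 104175, 95227, 78344 and 13515. On the unplaced scaffolds wild-type preimmune held 61515 reads on U and 18594 on Uextra, and su(Hw)f preimmune 66458 and 21874. After scaling, the preimmune ratio, mutant to wild type, lay below 1 on each of these 7, from 0.649 (0.642 to 0.656) on U to 0.888 (0.865 to 0.912) on XHet, and the input ratio was 0.638 and 0.860 on the same scaffolds. YHet held 26 wild-type and 31 su(Hw)f preimmune reads, in libraries from females, a ratio of 0.716 with an interval of 0.412 to 1.26.

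In 19 of 120384 windows of 1 kb the preimmune over input ratio passed 2-fold in opposite directions in the genotypes, and this difference was not tested. There were 5 such windows where preimmune exceeded input in wild type and fell short of it in the mutant. The opposite held in 14. X 12806001 to 12807000 was among the latter, where wild type had 9 preimmune reads to 24 of input (0.434) and su(Hw)f had 231 to 105 (2.26). 2R 13246001 to 13247000 was among the former, where wild type had 192 to 97 (2.29) and su(Hw)f 79 to 187 (0.434). Several of the 19 held few reads, such as 2R 830001 to 831000, with 6 to 18 in wild type and 19 to 9 in su(Hw)f. Whether scatter at low counts gives such windows was not tested.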

How the results depend on the processing

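No paired analysis was possible because every group holds a single library. Of 130 values recomputed under 14 alternatives, 71 moved, 2 changed direction and 57 did neither. A count moved when it changed by more than 1.5 times, and a share or ratio when it left its counting interval. Counts are given below as preimmune higher and lower, then input higher and lower, then preimmune with like inputs higher and lower. At 1.5-fold they were 21911, 19587, 2109, 11498, 14606 and 7691, and at 3-fold 868, 1683, 134, 493, 365 and 208. In 500 bp windows they were 26550, 26122, 973, 12347, 14952 and 6817, and in 5 kb windows 116, 233, 43, 118, 37 and 25. In 5 kb windows 1.48% of windows were called in preimmune against 12.6% at 1 kb, so the calls depend on the window size. Removing the trend with input level, added after seeing the data, gave 3888, 3258, 546 and 567, with 2180 and 1949 with like inputs. Scaling by the median window ratio moved no count past 1.5 times, but it took the preimmune counts to 5829 and 8555 and those with like inputs to 2868 and 2826, so the balance between directions depends on the scaling. Without chromosome 4 and arm ends 125 windows were higher in input.

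The share of preimmune calls that input called the same way was, for higher and lower windows, 5.53% and 32.8% at 1.5-fold, 1.89% and 24.99% in 500 bp windows, 30.9% and 35.3% in 5 kb windows, 3.53% and 20.2% at 5 counts, 2.35% and 17.1% at 50 counts, 3.499% and 15.04% with scaling by the median window ratio, 1.40% and 16.0% without chromosome 4 and arm ends, and 8.15% and 9.85% with the trend removed. It was 13.1% for higher windows at 3-fold, and 20.03% for lower windows with su(Hw)f thinned to wild-type depth. In each of these the share was above the base rate of input calls under the same alternative. The cause of the moves in this share was not tested.

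Arm ratios stayed within their counting intervals without extreme windows, and chromosome 4 also did under scaling to all reads. Each scaling multiplies every arm by 1 factor, 0.968 for the median window ratio and 1.006 for all reads, which by construction turns ratios close to 1. Scaling by the median window ratio gave 0.967 on X, 0.933 on 2L, 1.03 on 2R, 0.947 on 3L, 0.986 on 3R (turned from 1.018) and 0.708 on chromosome 4. Scaling to all reads gave 1.006 on X (turned from 0.999), 0.970 on 2L, 1.066 on 2R, 0.984 on 3L and 1.025 on 3R. Without chromosome 4 and arm ends they were 0.995, 0.962, 1.065, 0.973 and 1.011 on X, 2L, 2R, 3L and 3R.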
